A study of Mus musculus with 6 samples.

Results

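Described here are 10 genes of the transforming growth factor beta (TGF-β) system in mouse lung cells: the ligand genes Tgfb1, Tgfb2 and Tgfb3, the receptor genes Tgfbr1, Tgfbr2 and Tgfbr3, the latent TGF-β binding protein genes Ltbp1, Ltbp3 and Ltbp4, and the TGF-β-induced gene Tgfbi. They were chosen by gene name and make up 10 of the 49315 genes in the deposited count table. RNA was sequenced from lung cell suspensions of C57BL/6 mice, male C57BL/6J according to the methods of the study, 21 days after oropharyngeal instillation of sterile saline (sham) or bleomycin sulfate (BLM), a drug used to induce pulmonary fibrosis. For each treatment there was an unsorted library and a Lamp1-depleted and a Lamp1-enriched library, the latter pair sorted on cell surface Lamp1, a lysosomal membrane protein. The age of these mice was not given in the sources used here. Lungs of mice of the same group were pooled before sorting, and each of the 6 conditions is 1 library, so animals cannot be separated and no comparison of BLM with sham has a replicate.

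TGF-β is secreted as a latent complex in which the cytokine is held by its own propeptide and bound covalently to a latent TGF-β binding protein, which anchors it in the extracellular matrix. After release by integrins, proteases or mechanical force, the ligand is bound by TGFBR2, which recruits and phosphorylates TGFBR1, and SMAD proteins carry the signal to the nucleus, while TGFBR3 (betaglycan) is a co-receptor that presents ligand, in particular TGF-β2. In the lung the pathway is known for driving fibroblast activation and matrix deposition in fibrosis and for restraining lymphocytes.

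The genes lie on 9 chromosomes of the GRCm38 build, with only Tgfb1 and Ltbp4 on the same one. Tgfb1 spans chr7:25687002-25705077 on the plus strand and Ltbp4 chr7:27305136-27337692 on the minus strand. Among the other ligand genes, Tgfb2 spans chr1:186622792-186705989 and Tgfb3 chr12:86056745-86079041, both on the minus strand. The receptor genes are at chr4:47353222-47414931 on the plus strand for Tgfbr1, and at chr9:116084293-116175360 for Tgfbr2 and chr5:107106570-107289629 for Tgfbr3, both on the minus strand. On the plus strand, Ltbp1 is at chr17:75005568-75392512, Ltbp3 at chr19:5740904-5758532 and Tgfbi at chr13:56609523-56639562. Antisense exons cover 12.4% of the Tgfb3 exon length (Gm37804 and Gm48008) and 2.14% of Tgfb2 (Gm29491), and exons of Gm43422 on the same strand cover 4.54% of Tgfbr3. The strand setting of the counting was not given in the sources used here, so reads in these stretches cannot be told apart.

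Promoter sequences from RefSeq on GRCm38.p6 were found for 8 of the 10 genes, as 12 windows that each run from 250 bases before a start site to 50 bases after it. The stretches printed below lie upstream of both the RefSeq and the GENCODE start, and are shown for the genes that differed most between BLM and sham unsorted cells (Tgfbi and Tgfbr1) and for binding protein genes that differed strongly between sorted fractions (Ltbp1 and Ltbp4). Each is written 5′ to 3′ on the gene's own strand, with capitals marking CAGAC, the extended SMAD binding motif, and GGGCGG, the core of the GC box, or their reverse complements GTCTG and CCGCCC.
Tgfbi, chr13:56609336-56609522, plus strand: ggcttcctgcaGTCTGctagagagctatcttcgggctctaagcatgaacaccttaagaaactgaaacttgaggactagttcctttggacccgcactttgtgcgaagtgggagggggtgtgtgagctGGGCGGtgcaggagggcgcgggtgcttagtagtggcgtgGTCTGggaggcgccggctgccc
Tgfbr1, chr4:47352972-47353221, plus strand: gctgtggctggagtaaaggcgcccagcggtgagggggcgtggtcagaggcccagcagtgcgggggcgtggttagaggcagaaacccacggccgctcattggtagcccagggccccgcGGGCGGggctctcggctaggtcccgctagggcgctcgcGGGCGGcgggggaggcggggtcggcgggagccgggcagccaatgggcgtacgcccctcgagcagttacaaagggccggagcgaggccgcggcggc
Ltbp1, chr17:75005279-75005528, plus strand: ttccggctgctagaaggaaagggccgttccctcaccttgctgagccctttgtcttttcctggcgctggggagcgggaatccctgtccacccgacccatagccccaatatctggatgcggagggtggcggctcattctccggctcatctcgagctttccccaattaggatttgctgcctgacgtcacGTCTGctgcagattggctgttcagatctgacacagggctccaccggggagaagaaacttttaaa
Ltbp4, chr7:27337693-27337862, minus strand: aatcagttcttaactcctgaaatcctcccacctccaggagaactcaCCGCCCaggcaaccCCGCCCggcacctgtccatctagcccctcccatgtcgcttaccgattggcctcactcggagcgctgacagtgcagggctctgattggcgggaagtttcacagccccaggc
The Tgfbi stretch holds 2 CAGAC and 1 GGGCGG matches, that of Tgfbr1 holds 2 GGGCGG matches and none of CAGAC, that of Ltbp1 holds 1 CAGAC match, and that of Ltbp4 holds 2 GGGCGG matches. Searched on both strands with overlaps counted, CAGAC occurred in 7 of the 12 windows, from 6 of the 8 genes. GGGCGG occurred in 6 of the 12 windows, from 4 genes. For Tgfbr1 the CAGAC match lies only in a window whose start site is 32994 bases from the GENCODE start. Across all 32851 windows of the table, 49.6% held CAGAC and 35.7% held GGGCGG, so neither motif is rare at promoters. TGANTCA, the AP-1 site, occurred only at Ltbp3 among the 8 genes and in 7.81% of all windows, and TATAAA, the TATA box, only at Tgfb2 and in 13.6%. The GC content of the printed stretches was 59.4% for Tgfbi, 74.8% for Tgfbr1, 56.8% for Ltbp1 and 60.6% for Ltbp4. A match is a description of letters and not a binding site.

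Libraries held between 30236120 and 52918696 counted reads, and levels are given as CPM (reads of the gene per 1e6 counted) scaled by edgeR's trimmed mean of M values (TMM). The BLM Lamp1-depleted library stood apart: Gm26917 took 38.4% of its reads and between 0.884% and 7.10% of the others, and its TMM factor was the lowest at 0.699. Lamp1 itself was at 319 CPM in unsorted, 146 in Lamp1-depleted and 491 in Lamp1-enriched cells of sham-treated mice, and at 501, 111 and 378 CPM in the BLM libraries. The enriched fraction was above the depleted fraction in both treatments, with log2 ratios of 1.75 (95% counting interval 1.71 to 1.79) in sham and 1.77 (1.71 to 1.83) in BLM. In BLM-treated mice the unsorted library was nonetheless the highest of the 6 for Lamp1. Its lead over sham enriched cells, 501 against 491 CPM, was narrow and rests on the TMM scaling.

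Markers of other cell types moved with both the sort and the treatment. All 12 endothelial markers were at least 2-fold higher in Lamp1-enriched than in Lamp1-depleted cells in sham and in BLM, and all 10 T cell markers were at least 2-fold lower. Summed endothelial markers ran from 1491 CPM in sham depleted to 11651 CPM in sham enriched cells, and from 1115 to 12334 CPM in BLM. Summed T cell markers ran the other way, from 835 CPM depleted to 40.7 CPM enriched in sham and from 554 to 26.9 CPM in BLM. Between unsorted cells, the sum of 12 monocyte and interstitial macrophage markers was 189 CPM in sham and 1300 CPM in BLM, and that of 10 alveolar macrophage markers 670 and 2801 CPM. Of these, 11 monocyte and interstitial macrophage markers were higher in BLM and 1 lower, and 6 alveolar macrophage markers were higher and 4 lower. In bulk RNA, fewer cells of a type and less RNA per cell cannot be told apart, and the part of such shifts in the values of the TGF-β genes was not tested.

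**Figure D1:**
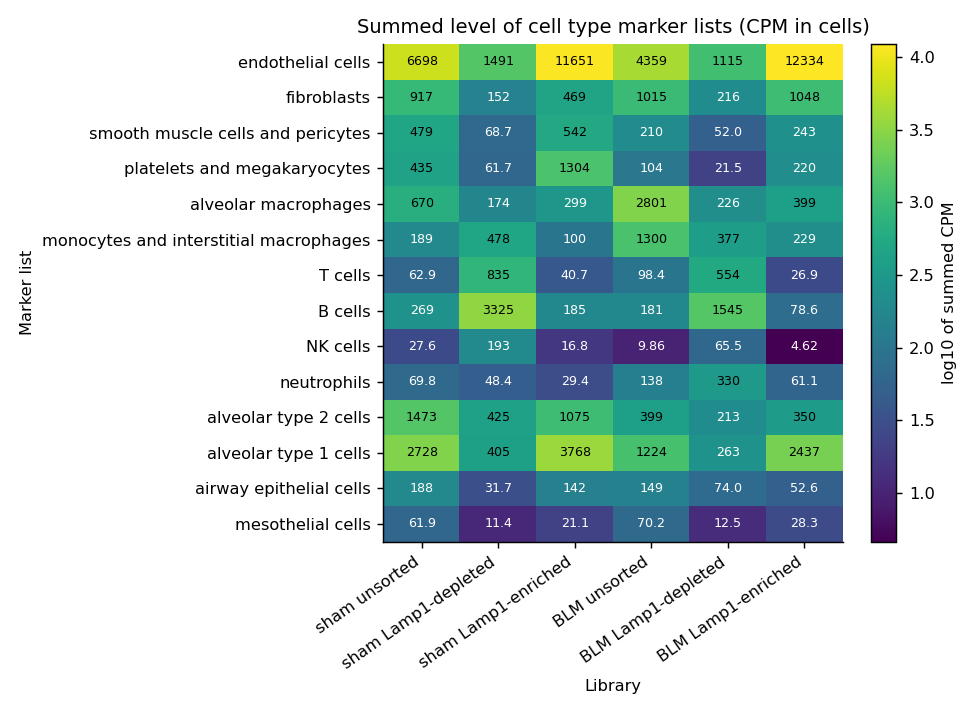
Summed CPM of 14 cell type marker lists (rows) in the 6 libraries (columns), with colour on a log10 scale and the summed CPM written in each cell. Endothelial sums were 11651 and 12334 CPM in the Lamp1-enriched libraries, B cell sums were highest in both Lamp1-depleted libraries at 3325 and 1545 CPM, and macrophage sums were highest in BLM unsorted cells.

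Among the ligands, Tgfb1 was the gene with the most reads and Tgfb2 the one that differed most between libraries. Tgfb1, the main ligand of immune and wound responses, had 5817 reads in sham unsorted, 11967 in sham depleted and 6531 in sham enriched cells, and 7363, 4047 and 6455 reads in the BLM libraries in the same order. Per kilobase of exon its level was between 23.5 CPM in BLM enriched and 52.1 CPM in sham depleted cells, a range of 2.22-fold, with both depleted libraries at the top. Tgfb2, a ligand that depends on betaglycan for receptor binding, had 649, 81 and 922 reads in the sham libraries and 468, 52 and 930 in the BLM libraries. Both depleted libraries were far below the other 4, and its per-kilobase level ranged 11.3-fold, from 0.307 CPM in sham depleted to 3.46 CPM in sham enriched cells. Tgfb3, the third ligand, had 723, 547 and 512 reads in sham and 482, 290 and 813 in BLM. Its level was the most even of the 10 genes, between 3.29 and 4.41 CPM per kilobase, a 1.34-fold range in which no 2 neighbouring libraries differed beyond counting error.

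The receptor genes differed in which library was highest. Tgfbr1, the type I receptor kinase that phosphorylates SMAD2 and SMAD3, had 5113, 5517 and 4268 reads in sham unsorted, depleted and enriched cells, and 18405, 1511 and 6762 in the BLM libraries. BLM unsorted cells were alone at 71.4 CPM per kilobase, while the other 5 libraries lay between 10.9 and 19.0. Tgfbr2, the type II receptor that binds ligand first, had 8682, 14529 and 10245 reads in sham and 13343, 4195 and 20005 in BLM. Its level ranged only 2.05-fold, from 21.8 CPM per kilobase in sham unsorted to 44.8 in BLM enriched cells. Tgfbr3 had 8904, 3105 and 11551 reads in sham and 3100, 704 and 8428 in BLM, with the highest level in sham enriched cells (38.4 CPM per kilobase) and the lowest in BLM depleted cells (5.09 CPM per kilobase). Within each treatment its order was enriched, unsorted, depleted, and the fold range over the 6 libraries was 7.53.

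All 3 binding protein genes were lowest in the Lamp1-depleted libraries of both treatments. Ltbp1, which anchors latent TGF-β to fibronectin and fibrillin matrix, had 4340, 662 and 6631 reads in sham and 2265, 189 and 8779 in BLM. Its per-kilobase level went from 0.837 CPM in BLM depleted to 15.1 CPM in BLM enriched cells, an 18.0-fold range. Ltbp3, a binding protein best known from the skeleton, had 1144, 223 and 995 reads in sham and 1436, 137 and 1659 in BLM, and ranged 7.44-fold, from 0.539 to 4.01 CPM per kilobase. Ltbp4, which also organises elastic fibres in the lung, had 14691, 2591 and 15865 reads in sham and 7354, 961 and 14808 in BLM. It was the highest of the 10 genes per kilobase in sham unsorted (46.8 CPM) and sham enriched cells (53.4 CPM), and in BLM depleted cells its level was 7.04 CPM.

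Tgfbi, a secreted matrix protein induced by TGF-β and also made by macrophages, had the widest range of the 10 genes at 38.2-fold. It had 1077, 929 and 392 reads in sham unsorted, depleted and enriched cells and 12825, 1426 and 2608 in the BLM libraries. Each BLM library lay above every sham library, and BLM unsorted cells stood apart at 86.2 CPM per kilobase against 17.9 in BLM depleted and 12.7 in BLM enriched cells. Sham unsorted and sham depleted cells, at 5.88 and 5.40, could not be separated beyond counting error, and sham enriched cells were lowest at 2.26. Over all 10 genes, 39 of the 50 pairs of neighbouring libraries in the order of levels differed beyond the 95% counting interval and 11 did not. These 11 were all 5 pairs of Tgfb3, 2 pairs each of Tgfb1 and Tgfb2, and 1 pair each of Tgfbr1 and Tgfbi.

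**Figure D2:**
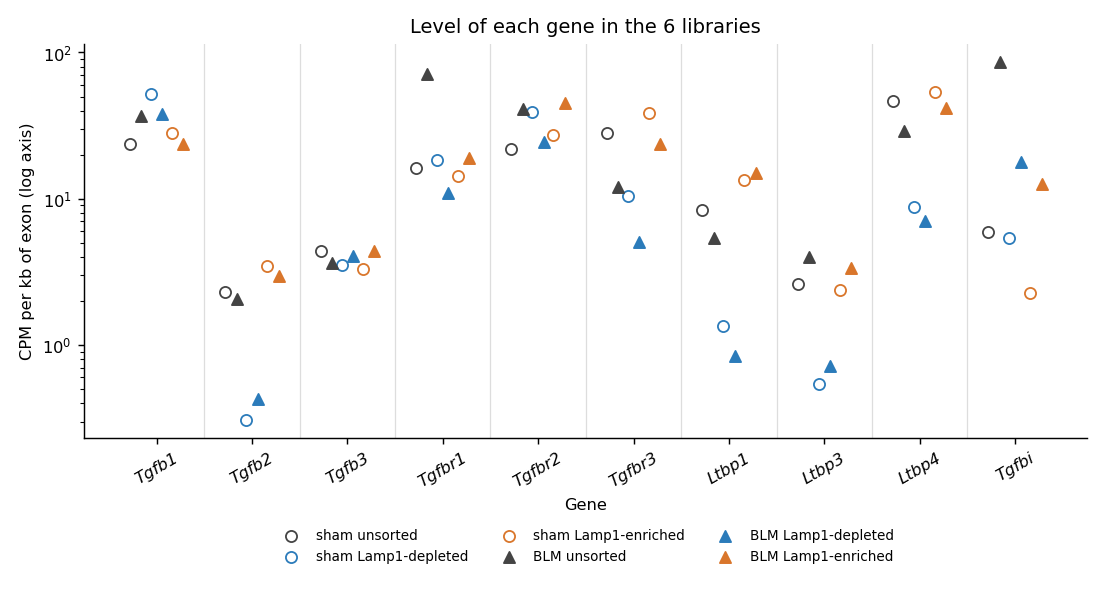
CPM per kilobase of exon (log axis) of the 10 genes in the 6 libraries, 1 point per library, with open circles for sham, filled triangles for BLM and colour for the cell fraction. Tgfb3 points lie between 3.29 and 4.41, both Lamp1-depleted points of Tgfb2, Ltbp1, Ltbp3 and Ltbp4 lie below the other 4, and the BLM unsorted points of Tgfbr1 (71.4) and Tgfbi (86.2) lie above all others of these genes.

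The comparison of BLM with sham asks how the TGF-β genes differed in injured lung, and its answer depended on the cell fraction. A gene was counted as different at a log2 ratio of at least 1 or at most -1, which is 2-fold, among genes for which 1 of the 2 libraries held 10 reads or more, a minimum that all 10 genes met in every comparison. In unsorted cells, Tgfbr1 and Tgfbi were at least 2-fold higher in BLM and Tgfbr3 at least 2-fold lower. These are 2 and 1 of 10, where 13.9% of all 22772 genes were higher and 16.0% lower by that measure. In Lamp1-depleted cells Tgfbi was higher and Tgfbr3 lower, 1 of 10 each, against 13.7% higher and 22.3% lower of 20852 genes. The interval of Tgfbr3 there spans the threshold, and with DESeq2 size factors its ratio was -0.88 and no longer past it. In Lamp1-enriched cells Tgfbi was higher and none of the 10 was lower, against 10.2% higher and 7.81% lower of 21671 genes. Medians over the 10 genes were 0.23, -0.39 and 0.29 on the log2 scale in unsorted, depleted and enriched cells, and those over all genes -0.069, -0.21 and -0.00026. With total counts only the first of these medians over the 10 genes became -0.035, and in depleted cells 6 rather than 1 were past 2-fold lower. With 1 library per condition no p-value was computed, and the intervals cover counting error only.

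Tgfbi had the largest ratio of the 10 genes in each fraction, but with total counts only 6 of the 10 genes were further from 0 in depleted cells, all of them lower in BLM. Its level was 22.2 CPM in sham and 325 CPM in BLM unsorted cells, 20.4 and 67.5 CPM in depleted cells, and 8.52 and 47.8 CPM in enriched cells. The log2 ratios were 3.87 (3.78 to 3.96), 1.73 (1.61 to 1.85) and 2.49 (2.34 to 2.65). The summed monocyte and interstitial macrophage markers had log2 ratios of 2.79 in unsorted, -0.34 in depleted and 1.19 in enriched cells. In depleted cells 7 of these 12 markers were above 0 and 5 below (median 0.14), with 3 at least 2-fold higher and 1 lower. Summed alveolar macrophage markers were at 2.06, 0.38 and 0.41 in the same order. Of these 10 markers 6 were above 0 and 4 below in unsorted cells (median 1.46), and 5 and 5 in depleted cells (-0.11). Summed neutrophil markers were at 0.98, 2.77 and 1.05. The part of monocytes, macrophages and neutrophils in the Tgfbi ratios was not tested. The difference in depleted cells stood at 1.01 when libraries were scaled by total counts only.

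Tgfbr1 was 467 CPM in BLM against 105 CPM in sham unsorted cells, a log2 ratio of 2.15 (2.10 to 2.19). In the sorted fractions it differed less and in opposite directions, from 121 CPM in sham to 71.5 in BLM depleted cells (-0.76, -0.84 to -0.68) and from 92.8 to 124 CPM in enriched cells (0.42, 0.36 to 0.48). Tgfbr2 followed the same signs, with 179 CPM in sham and 338 CPM in BLM unsorted cells (0.92, 0.88 to 0.96), 319 and 199 CPM in depleted cells (-0.68, -0.73 to -0.63) and 223 and 367 CPM in enriched cells (0.72, 0.69 to 0.76). Tgfbr3, the co-receptor, was lower in BLM in all 3 fractions. It went from 183 to 78.6 CPM in unsorted cells (-1.22, -1.28 to -1.16), from 68.1 to 33.3 CPM in depleted cells (-1.03, -1.15 to -0.91) and from 251 to 155 CPM in enriched cells (-0.70, -0.74 to -0.66). Summed endothelial markers had log2 ratios of -0.62, -0.42 and 0.082 in these fractions, and summed smooth muscle and pericyte markers, the list nearest to Tgfbr3, had -1.19, -0.40 and -1.16. Of these 12 smooth muscle and pericyte markers 4 were above 0 and 8 below in unsorted cells (median -1.40) and in enriched cells (-0.63). The part of endothelial cells, smooth muscle cells and pericytes in the Tgfbr3 ratios was not tested.

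Of the ligands, Tgfb1 was higher in BLM in unsorted cells, at 187 against 120 CPM (0.64, 0.59 to 0.69), and lower in both sorted fractions. Depleted cells held 262 CPM in sham and 192 CPM in BLM (-0.45, -0.51 to -0.40), and enriched cells 142 and 118 CPM (-0.26, -0.31 to -0.21). Tgfb2 differed little, and only in enriched cells was its interval away from 0, at -0.23 (-0.36 to -0.099). Its log2 ratios were -0.17 (-0.35 to 0.0014) in unsorted cells and 0.47 (-0.061 to 0.99) in depleted cells, where 81 and 52 reads set the precision and scaling by total counts turned the value to -0.25. Tgfb3 was slightly lower in BLM in unsorted cells (-0.29, -0.45 to -0.12) and slightly higher in enriched cells (0.42, 0.26 to 0.59), and in depleted cells its ratio of 0.19 (-0.016 to 0.40) became -0.53 with total counts only.

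Binding protein genes each followed a course of their own. Ltbp3 was higher in BLM in unsorted cells, at 36.4 against 23.6 CPM (0.63, 0.51 to 0.74), and in enriched cells, at 30.4 against 21.6 CPM (0.49, 0.38 to 0.61), while the value in depleted cells of 0.41 (0.089 to 0.72) turned to -0.31 with total counts only. Ltbp4 was lower in BLM in all 3 fractions, from 303 to 186 CPM in unsorted cells (-0.70, -0.74 to -0.66), from 56.8 to 45.5 CPM in depleted cells (-0.32, -0.43 to -0.21) and from 345 to 272 CPM in enriched cells (-0.34, -0.38 to -0.31). Ltbp1 was lower in BLM in unsorted cells, at 57.4 against 89.4 CPM (-0.64, -0.71 to -0.57), and in depleted cells, at 8.95 against 14.5 CPM (-0.70, -0.94 to -0.46). In enriched cells it was slightly higher, at 161 against 144 CPM (0.16, 0.11 to 0.21).

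**Figure D3:**
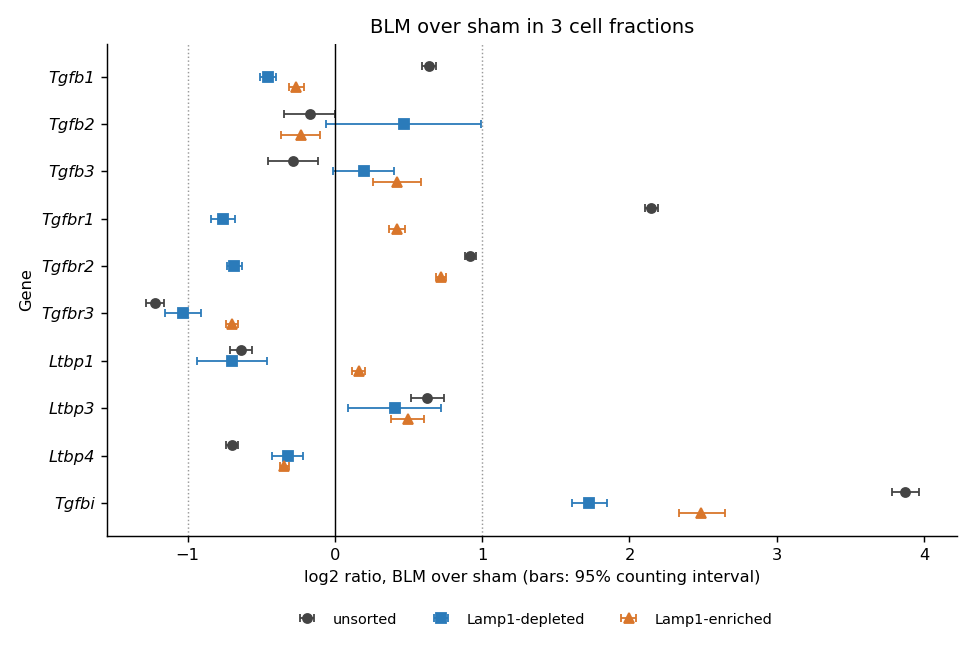
Log2 ratio of BLM over sham for each gene in unsorted, Lamp1-depleted and Lamp1-enriched cells, with bars for the 95% counting interval and dotted lines at 2-fold, 1 library per condition. Tgfbi was past 2-fold in all 3 fractions and Tgfbr1 only in unsorted cells, and with total counts only the Lamp1-depleted values of Tgfb2, Tgfb3 and Ltbp3 changed sign to -0.25, -0.53 and -0.31.

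In a plain mixture of 2 fractions a level lies between those of the fractions, so the unsorted level was set against both. In BLM, Tgfbr1 was above both fractions, by a log2 ratio of 2.71 over depleted and 1.91 over enriched cells, and so was Tgfbi, by 2.27 and 2.76. These 2 of 10 genes were at least 2-fold above both fractions, as were 8.41% of all genes in BLM. In sham, 0 of the 10 genes and 7.22% of all genes did so. This comparison was chosen after the values were seen. Summed alveolar macrophage markers were also highest in unsorted cells in BLM, with 2801 CPM unsorted, 226 CPM depleted and 399 CPM enriched. So were monocyte and interstitial macrophage markers, with 1300, 377 and 229 CPM. The order of the 2 sorted fractions differed between these lists, as it did between Tgfbr1 and Tgfbi. Other sums were highest in unsorted cells in BLM as well. In unsorted, depleted and enriched cells, mesothelial markers were at 70.2, 12.5 and 28.3 CPM and airway epithelial markers at 149, 74.0 and 52.6 CPM. Alveolar type 2 markers were at 399, 213 and 350 CPM. In sham, the alveolar macrophage sum was likewise above both fractions, at 670 against 174 and 299 CPM. The part of any of these cells in the Tgfbr1 and Tgfbi levels was not tested. The remaining genes lay between the fractions in BLM, except Ltbp3, which was 0.26 above enriched cells, and Tgfb3, which was below both. For Tgfb3 the depleted over unsorted ratio was 0.17 (-0.047 to 0.38), so these libraries could not be separated beyond counting error.

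The comparison of Lamp1-enriched with Lamp1-depleted cells asks which TGF-β genes go with surface Lamp1. Tgfb2, Tgfbr3, Ltbp1, Ltbp3 and Ltbp4 were at least 2-fold higher in enriched cells in both treatments. That is 5 of 10 in sham, where 27.5% of 21867 genes were higher, and 5 of 10 in BLM, where 34.4% of 21838 genes were. Tgfbi was the 1 gene at least 2-fold lower in sham, against 25.2% of all genes, and none of the 10 was in BLM, against 22.6%. The median log2 ratio of the 10 genes was 0.89 in sham and 1.55 in BLM, beside -0.013 and 0.29 for all genes.

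Sham and BLM each had 1 enriched and 1 depleted library, which allowed an edgeR quasi-likelihood test over these 4 libraries, blocked by treatment. Of 20593 genes tested, 21.5% were higher and 19.2% lower in enriched cells at a Benjamini-Hochberg adjusted p under 0.05, and of the 10 genes 5 rose and 2 fell. Ltbp1 had a log2 fold change of 3.64 (adjusted p = 7.24e-20, edgeR), Tgfb2 of 3.06 (6.48e-11), Ltbp4 of 2.49 (7.12e-10), Ltbp3 of 2.09 (4.71e-07) and Tgfbr3 of 1.95 (6.02e-07). These 5 calls were kept in every other fit run. One of these left out the BLM depleted library, so that the depleted arm was 1 library, and took in the unsorted libraries, with the spread supplied by the other groups. Tgfb1, at -0.89 (adjusted p = 0.0374, edgeR), and Tgfbi, at -0.97 (0.0152), fell in the test as planned, but neither call held with total counts only, with all genes of at least 1 read, with all 6 libraries or without the treatment block. For Tgfb3 (-0.090, adjusted p = 0.875, edgeR), Tgfbr1 (0.11, 0.835) and Tgfbr2 (0.088, 0.880) no difference over both treatments was detected. The test has 1 residual degree of freedom, which is how the sorting effect differs between treatments, and shares its estimate of spread across genes.

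By treatment, Tgfb2 had the widest gap in sham and Ltbp1 in BLM. Ltbp1 was 14.5 CPM in depleted and 144 CPM in enriched sham cells, and 8.95 and 161 CPM in BLM, for log2 ratios of 3.31 (3.20 to 3.43) and 4.17 (3.96 to 4.39). Ltbp4 ratios were 2.60 (2.54 to 2.66) in sham and 2.58 (2.48 to 2.67) in BLM, and Ltbp3 ratios 2.14 (1.93 to 2.36) and 2.23 (1.98 to 2.49). Tgfb2 was at 1.78 and 20.0 CPM in sham and at 2.46 and 17.1 CPM in BLM, for 3.49 (3.17 to 3.84) and 2.79 (2.39 to 3.23), while its co-receptor gene Tgfbr3 had 1.88 (1.82 to 1.94) and 2.21 (2.10 to 2.33). Tgfb1 went the other way with -0.89 (-0.93 to -0.84) and -0.69 (-0.75 to -0.64). Tgfb3 was close to even, at -0.11 (-0.29 to 0.068) and 0.12 (-0.075 to 0.32), the latter -0.033 with DESeq2 size factors. Tgfbi had -1.26 (-1.43 to -1.09) in sham and -0.50 (-0.59 to -0.40) in BLM, and the BLM value turned to 0.063 with total counts only.

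The type I and type II receptor genes changed sides between treatments. Tgfbr1 had an enriched-over-depleted log2 ratio of -0.38 (-0.44 to -0.33) in sham and 0.79 (0.71 to 0.88) in BLM, and Tgfbr2 of -0.52 (-0.55 to -0.48) and 0.89 (0.84 to 0.93). The BLM minus sham difference of the sorting ratio was 1.18 (1.08 to 1.28) for Tgfbr1 and 1.40 (1.34 to 1.46) for Tgfbr2, counting error only. Both rest on the BLM Lamp1-depleted library, in which Gm26917 took 38.4% of the reads. A difference of that size is common in these libraries: over 20463 genes the median was 0.22, 95% of genes lay between -2.40 and 3.68, and 33.3% were past 1 in either direction. For Ltbp1 the difference was 0.86 (0.62 to 1.10) and for Tgfbi 0.76 (0.57 to 0.95), while Ltbp3 (0.087, -0.24 to 0.41), Ltbp4 (-0.023, -0.13 to 0.089) and Tgfb3 (0.23, -0.032 to 0.49) did not differ beyond counting error.

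**Figure D4:**
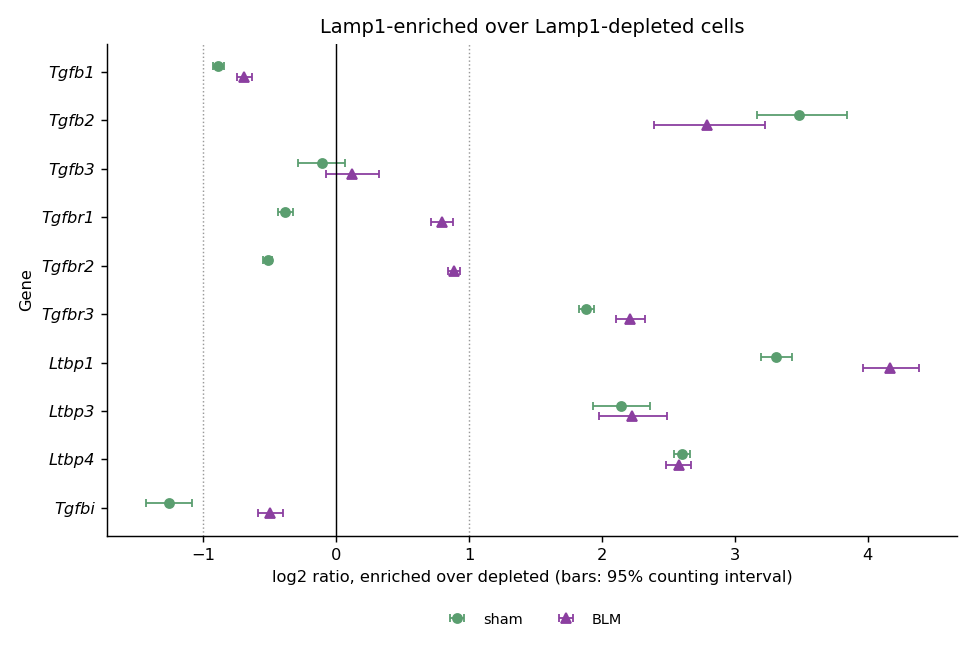
Log2 ratio of Lamp1-enriched over Lamp1-depleted cells for each gene in sham and in BLM, with bars for the 95% counting interval and dotted lines at 2-fold, 1 library per condition. Tgfb2, Tgfbr3, Ltbp1, Ltbp3 and Ltbp4 lie to the right of 2-fold in both treatments, Tgfbr1 and Tgfbr2 lie on opposite sides of 0, and the BLM values of Tgfb3 and Tgfbi change sign with DESeq2 size factors (-0.033) and total counts only (0.063), respectively.

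Ratios of genes within a library do not depend on how libraries are scaled to each other. Tgfb1 made up most of the ligand reads per kilobase everywhere, with shares of 78.0%, 93.1% and 80.7% in sham unsorted, depleted and enriched cells and 86.7%, 89.4% and 76.2% in BLM. Tgfb2 made up 7.57%, 0.549% and 9.91% in sham and 4.80%, 1.0% and 9.55% in BLM, so its share was at most 1.0% in depleted and at least 9.55% in enriched cells. The type II to type I receptor ratio, Tgfbr2 to Tgfbr1 per kilobase, was 1.36, 2.10 and 1.92 in sham and 0.579, 2.22 and 2.36 in BLM. BLM unsorted cells were therefore the single library with more Tgfbr1 than Tgfbr2 (counting interval 0.566 to 0.592). The ratio of Tgfbr3 to Tgfbr2 was 1.28, 0.267 and 1.41 in sham and 0.291, 0.210 and 0.527 in BLM, and was lower in BLM than in sham in each fraction. Summed binding protein reads per kilobase were 1.90, 0.191 and 1.98 times those of the ligands in sham and 0.896, 0.202 and 1.96 times in BLM. Enriched cells thus had close to the same binding protein to ligand ratio in both treatments, and unsorted cells a lower one in BLM. Ltbp4 exceeded Ltbp1 in all libraries, by ratios of 5.60, 6.47 and 3.96 in sham and 5.37, 8.41 and 2.79 in BLM.

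**Figure D5:**
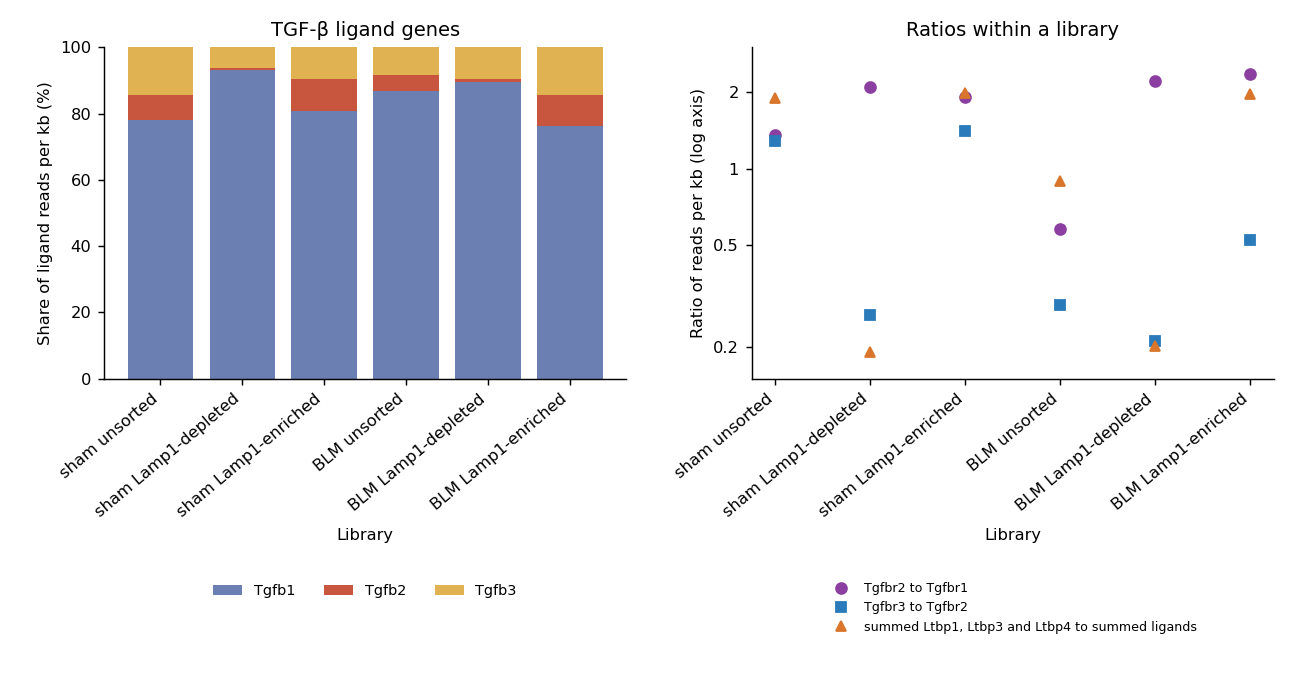
Left, share of Tgfb1, Tgfb2 and Tgfb3 in the summed ligand reads per kilobase of each library (%); right, ratios of reads per kilobase within each library (log axis) for Tgfbr2 to Tgfbr1, Tgfbr3 to Tgfbr2 and summed Ltbp1, Ltbp3 and Ltbp4 to summed ligands. The Tgfb1 share is between 76.2% and 93.1%, Tgfbr2 to Tgfbr1 is below 1 only in BLM unsorted cells (0.579), and binding proteins to ligands are at 0.191 and 0.202 in the Lamp1-depleted libraries.

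Genes and marker lists with the most similar profile were found by the Euclidean distance between log2 CPM values centred over the 6 libraries, among 17917 genes with at least 50 reads in the highest library. Ltbp1 had the closest neighbours, Ldb2 (distance 0.105), Nsg1 (0.123) and Acer2 (0.186), and its nearest marker list was endothelial cells (0.637). For Ltbp4 the nearest genes were Fmnl2, Bcl2l2 and Acvr2b, a type II receptor of the activin branch, and the nearest list smooth muscle cells and pericytes (0.589). Tgfb2 was nearest to alveolar type 1 (0.769) and endothelial markers (0.885), with Atoh8, Cttnbp2nl and Fam189a2 as nearest genes. Tgfbr3 was nearest to Hes1 and Prr29 and to smooth muscle and pericyte markers (1.13), with fibroblast (1.21) and endothelial markers (1.43) close behind. Ltbp3 was nearest to Cc2d2a, Cd248 and Junos and to fibroblast markers (1.34). Tgfbi was nearest to Basp1 (0.270), Csf2rb (0.589), the common beta receptor of myeloid cytokines, and Pianp (0.704), with monocytes and interstitial macrophages as its nearest list (1.25). Tgfbr1 lay nearest to Ncoa4, Abcg1 and Hexa and to alveolar macrophages (1.77). Lists were far from Tgfbr2 (fibroblasts, 2.66), Tgfb1 (neutrophils, 2.47) and Tgfb3 (neutrophils, 2.30), whose nearest genes were Slc26a2, Syt11 and Cs, then Yeats4, Rab8a and Tbl1xr1, then Gm37946, D430042O09Rik and Clcn2. These distances rest on 6 libraries that differ in cell makeup and depth and are a description.

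The wider pathway was read from 70 genes in 5 lists. Beside the counts that follow stand the shares of all genes past 2-fold, which were 13.9% higher and 16.0% lower in BLM unsorted, 13.7% and 22.3% in depleted and 10.2% and 7.81% in enriched cells. One list held 18 genes around the activation of latent TGF-β. Of these, 5 were at least 2-fold higher and 1 lower in BLM unsorted cells (median 0.73), and 5 and 1 in enriched cells (0.58). In depleted cells 7 were higher and 0 lower (0.62, but -0.097 with 3 higher and 3 lower under total counts only). Mmp14, a membrane protease, was higher in each fraction, at 2.63, 2.24 and 1.95, Furin, which cleaves the propeptide, was at 1.82 in unsorted cells, and Itgb5 was at 1.85 there but at -0.30 in enriched cells. Itgb3, an integrin subunit of platelets and endothelium, was lower at -1.12 in unsorted and -1.80 in enriched cells, where all 12 platelet markers were at least 2-fold lower and their sum was 1304 CPM in sham and 220 CPM in BLM. By sorting, 13 of 18 were at least 2-fold higher and none lower in sham enriched cells, against 27.5% and 25.2% of all genes, and 10 higher and 2 lower in BLM, against 34.4% and 22.6%. In the edgeR test 11 of 18 rose and 2 fell, where 21.5% of all genes rose and 19.2% fell. Lrrc32 (GARP), which tethers latent TGF-β to the cell surface, was among those that rose, with log2 ratios of 3.09 in sham and 3.44 in BLM, and Nrros, its counterpart in myeloid cells, fell, with -0.99 and -0.69 (adjusted p = 0.0202, edgeR).

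Receptors of the other branches of the family went with Lamp1-enriched cells. All 9 were at least 2-fold higher there in sham (8 of 9 with total counts outside Gm26917) and 8 of 9 in BLM, beside 27.5% and 34.4% of all genes, and 8 of 9 rose in the edgeR test with none falling, beside 21.5% and 19.2%. Eng (endoglin), Acvrl1 (ALK1) and Bmpr2, which form the BMP9 receptor complex of endothelium, had ratios of 3.14, 3.10 and 3.04 in sham and 3.69, 3.49 and 4.07 in BLM. In unsorted cells 4 of 9 were at least 2-fold lower in BLM and none higher, beside 16.0% and 13.9% of all genes. Eng was at -1.18, Bmpr2 at -1.13 and Acvrl1 at -1.09. Summed endothelial markers were at -0.62, with 11 of 12 below 0 and 4 at least 2-fold lower. The part of endothelial cells in these receptor ratios was not tested. Of 9 SMAD and adaptor genes, 1 was at least 2-fold higher and 1 lower in BLM unsorted cells, close to the shares of all genes (13.9% and 16.0%): Dab2, an endocytic adaptor, at 2.60 and Smad9, of the BMP branch, at -1.84. In the sorting test 5 of the 9 rose and 1 fell in enriched cells, beside 21.5% and 19.2% of all genes, the latter being Smad3, a SMAD of the TGF-β branch, at -1.39 in sham and -2.05 in BLM (edgeR adjusted p = 2.13e-06).

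Inhibitors of the pathway had members on both sides. In BLM unsorted cells 3 of 14 were at least 2-fold higher and 3 lower, not far from the 13.9% and 16.0% of all genes, with a median of 0.24 that became -0.018 with total counts only. Pmepa1, a feedback inhibitor induced by TGF-β, was at 1.61, Fst (follistatin) at 1.33 and Tgif1, a SMAD co-repressor, at 1.15, against Smad6 at -1.69, Smurf2 at -1.41 and Bambi, a pseudoreceptor, at -1.29. Bambi was also lower in BLM in depleted (-1.21) and enriched cells (-1.33). The edgeR test called 8 of 14 higher and 2 lower in enriched cells, beside 21.5% and 19.2% of all genes, the latter being Tgif1 (-2.60 in sham and -2.26 in BLM) and Bambi (-0.85 and -0.98).

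Target genes of TGF-β were the list with the most members past 2-fold in BLM. In unsorted cells 11 of 19 tested were higher and 2 lower (median 1.41), in depleted cells 9 and 2 of 18 (1.10, and 7 and 4 with a median of 0.39 under total counts only), and in enriched cells 12 and 2 of 20 (2.14). Over all genes 13.9% and 16.0%, 13.7% and 22.3%, and 10.2% and 7.81% were higher and lower in these fractions. Fn1 (fibronectin) was at 3.95 in unsorted, 1.31 in depleted and 2.82 in enriched cells, Col1a1 at 2.17, 2.39 and 3.24, and Tnc (tenascin C) at 3.17, 2.46 and 4.22. Inhba, an activin subunit, was at 4.09 in unsorted and 3.95 in enriched cells from at most 13 sham reads. Some targets went the other way, with Postn (periostin) at -1.85 in unsorted and -1.52 in enriched cells, Cdkn2b at -1.94 and -1.47, and Ccn2, deposited as Ctgf, at -0.64 and -0.38. In the sorting comparison 15 of 18 targets in sham and 18 of 20 in BLM were at least 2-fold higher in enriched cells, beside 27.5% and 34.4% of all genes. Comp, a cartilage matrix protein named after its values were seen, was the 1 target at least 2-fold lower, with 3 reads against 10 in sham and 20 against 26 in BLM. In the edgeR test 15 of 19 rose and none fell, beside 21.5% and 19.2% of all genes. Cthrc1, a marker of activated fibroblasts, had 224 reads in BLM enriched and 0 in BLM depleted cells, at least 28.9-fold higher against a floor of 3 reads. Between unsorted cells, however, Cthrc1 was lower in BLM than in sham, at -0.86 (-1.52 to -0.25). The lists of targets and of fibroblast markers share Col1a1, Col1a2 and Col3a1, and those of targets and smooth muscle share Acta2 and Tagln. Summed fibroblast markers were 469 CPM in sham and 1048 CPM in BLM enriched cells. Of these 12 markers only 5 were higher in BLM there and 7 lower (median -0.068). The part of fibroblasts in the target ratios was not tested.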

How the data were processed

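The authors deposited 1 table of raw read counts per gene for the 6 libraries, from polyA RNA sequenced as paired reads. The submitters' processing notes name Trimmomatic 0.36, STAR 2.5.2b, featureCounts, Subread 1.5.2, DESeq2 and GRCm38. The annotation, the strand setting and the treatment of reads mapping to several places were not given in the sources used here. Locations and exon lengths are from GENCODE M21.

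Counts were scaled by TMM in edgeR 4.0.16 (R 4.3.3), with factors from 0.699 to 1.19. Log2 ratios used a prior count of 0.5 and genes for which either library held 10 reads or more, in Python 3.11.15. Intervals are 95% Clopper-Pearson intervals of the share of reads and cover counting error only. A library at 3 reads or fewer was treated as at the floor. Enriched and depleted cells were tested by edgeR's quasi-likelihood test (filterByExpr, treatment block, adjusted p under 0.05, infinite prior degrees of freedom, biological coefficient of variation 0.316). The methods give a range of lungs per pool but not the number behind each library. The p-values rest on a spread shared across genes and not on each gene's own spread. The 1 residual degree of freedom is how the sorting effect differs between treatments, so they do not measure the spread between animals. Programs were tested on simulated data.

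The members and lists were chosen with earlier results of these data known. Named were all 10 genes, Lamp1, Gm26917, up to 3 extreme members in each direction per list and comparison with at least 50 reads, from which the text takes some, and the 3 nearest genes of each member. The exon overlap of 1 member and 1 nearest gene of another are not reported here. Where the rule names a pathway gene in 1 comparison, its values in others may stand beside it. Alternatives were DESeq2 1.42.0 size factors and Wald test, total counts with or without Gm26917, a prior count of 2, minimums of 1 or 50 reads, thresholds of 1.5-fold and 4-fold, all 6 libraries, and no treatment block. Leaving out the BLM Lamp1-depleted library and comparing unsorted cells with both sorted fractions were added after seeing the data.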

Additional observations from a re-analysis of the deposited data

Results flagged for a closer look

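Some genes had BLM over sham ratios of opposite sign in different cell fractions, with counting intervals away from 0. None of these differences was tested, since each condition is 1 library. Tgfb1 was at 0.64 on the log2 scale in unsorted cells, -0.45 in Lamp1-depleted cells and -0.26 in Lamp1-enriched cells. Tgfb3 was at -0.29 in unsorted and 0.42 in enriched cells. Tgfbr1 was at 2.15 in unsorted, -0.76 in depleted and 0.42 in enriched cells, and Tgfbr2 at 0.92, -0.68 and 0.72. Ltbp1 was at -0.64 in unsorted, -0.70 in depleted and 0.16 in enriched cells.

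The enriched over depleted ratio changed sign between treatments for both signalling receptors. For Tgfbr1 it was -0.38 in sham and 0.79 in BLM, and for Tgfbr2 -0.52 in sham and 0.89 in BLM. These differences were not tested, and the BLM Lamp1-depleted library, with 38.4% of its reads on Gm26917, enters each BLM value.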

How the results depend on the processing

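The count of genes past the threshold stayed within 1.5 times the reported one in 43 of 50 alternatives. At a 1.5-fold threshold it was 8 in unsorted, 5 in depleted and 3 in enriched cells for BLM over sham, and 8 for the sorting of BLM cells. In depleted cells it was 1 with DESeq2 size factors, which lost Tgfbr3, 7 with total counts only and 0 at 4-fold. Total counts only moved the median of all genes by -0.26 in unsorted and -0.72 in depleted cells for BLM over sham, and by -0.17 in sham and 0.56 in BLM for sorting. DESeq2 size factors moved it by 0.15 in depleted cells for BLM over sham and by -0.15 for sorting in BLM. Total counts outside Gm26917 moved it by -0.18 in unsorted cells, and by -0.21 in sham and -0.12 in BLM for sorting. With total counts only, the higher share of genes past 2-fold went from 46.6% to 32.4% in unsorted, from 38.1% to 12.7% in depleted cells and from 60.3% to 74.7% for sorting in BLM. The edgeR test called 7 of the 10 genes, and 5 with total counts only, all genes of at least 1 read, all 6 libraries or no treatment block, where adjusted p ranged from 0.0590 to 0.677 for Tgfb1 and from 0.0575 to 0.558 for Tgfbi. Without the BLM Lamp1-depleted library it called 7, with Tgfb1 at 0.0280 and Tgfbi at 0.0137, in a fit of 5 libraries, unsorted ones included, whose lone depleted library is assumed to vary like the other groups, and whose counterpart with all 6 libraries called 5. For replicate numbers, no paired analysis of BLM with sham was possible because each condition has 1 library. The edgeR test pairs enriched and depleted cells through its treatment block. Tgfb2 in depleted cells, with 81 and 52 reads, is the value that depth limits most.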
